A study of Mus musculus with 2 samples.

Results

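The vascular endothelial growth factor (VEGF) system was described here by 9 genes, chosen by name: the ligands Vegfa, Vegfb, Vegfc and Pgf, the receptors Kdr, Flt1 and Flt4, and the co-receptors Nrp1 and Nrp2. All 9 were found among 43346 mouse gene entries of the gene tables, together with their 33 annotated transcripts. Polyadenylated RNA from adult male C57BL/6J adipose tissue, at an age of 10 weeks, was sequenced in 2 technical libraries of 1 biosample. The labels name no mutant allele, no treatment and no fat depot. Library 2 was prepared later than library 1, so library and preparation date cannot be told apart. There is therefore a single group, and every SD below is the technical spread of n = 2 libraries.

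VEGF ligands are secreted dimers that bind receptor tyrosine kinases on endothelial cells. VEGF-A acts mainly through Kdr (VEGFR2) to drive growth and permeability of blood vessels, while Flt1 (VEGFR1) binds VEGF-A, VEGF-B and placental growth factor tightly and signals weakly, and Flt4 (VEGFR3) serves lymphatic vessels through VEGF-C. Neuropilins lack a kinase and present certain ligand forms to the receptors; in fat, the capillary bed supplies each adipocyte and expands with the depot.

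The libraries held 19954869 and 19256807 expected counts, which are read numbers estimated per gene by the quantifier. Mitochondrial genes and their nuclear copies took 51.7% of the TPM (a level per transcript length, scaled to the same total in every library) in library 1 and 15.9% in library 2. Since that total is fixed, this share enters the TPM of every other gene: 8 of the 9 members had the higher TPM in library 2, whereas 4 of 9 had the higher scaled count. All 10 adipocyte markers reached 1 TPM in both libraries, with Fabp4, the fatty acid binding protein of fat cells, at 4072 and 6105 TPM. The 6 epididymal markers, genes of the duct beside the testis, also did, and summed to 28810 and 35106 TPM, led by Gpx5 at 14177 and 15610 TPM. Their part in the VEGF levels was not tested, and in bulk tissue fewer cells of a type and less RNA per cell cannot be told apart.

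Each library held all 9 members at a level of at least 1 TPM, and their expected counts were whole within 0.005, so none showed the fractional count that marks reads shared with another gene. The 4 ligands summed to 62.9 TPM in the first library and 262 TPM in the second, the 3 receptors to 34.3 and 45.2 TPM, and the 2 co-receptors to 43.9 and 44.2 TPM. These sums move with the mitochondrial share. With TPM rescaled without mitochondrial genes and their copies, Nrp1 was at 74.0 and 40.9, Nrp2 at 16.8 and 11.6, Kdr at 39.1 and 29.4, Flt1 at 29.5 and 19.2 and Vegfc at 7.58 and 6.23, each lower in library 2. On that scale Vegfa (69.2 and 204), Vegfb (28.9 and 59.8), Pgf (24.6 and 41.4) and Flt4 (2.48 and 5.09) were still higher in library 2. The deposited intervals quoted next belong to the posterior mean TPM, a second estimate that lies close to the TPM.

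In library 1 the order of posterior mean TPM was Nrp1, Vegfa, Kdr, Flt1, Vegfb, Pgf, Nrp2, Vegfc and Flt4. Intervals of neighbours overlapped between Nrp1 and Vegfa, between Flt1 and Vegfb, and between Vegfb and Pgf. In library 2 the order was Vegfa, Vegfb, Pgf, Nrp1, Kdr, Flt1, Nrp2, Vegfc and Flt4, with overlapping intervals between Pgf and Nrp1 and between Vegfc and Flt4. Kdr lay above Flt1, Flt1 above Nrp2 and Nrp2 above Vegfc in both libraries. When the genes were ordered by mean TPM, these were the 3 neighbouring pairs whose library ranges did not overlap.

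**Figure D1:**
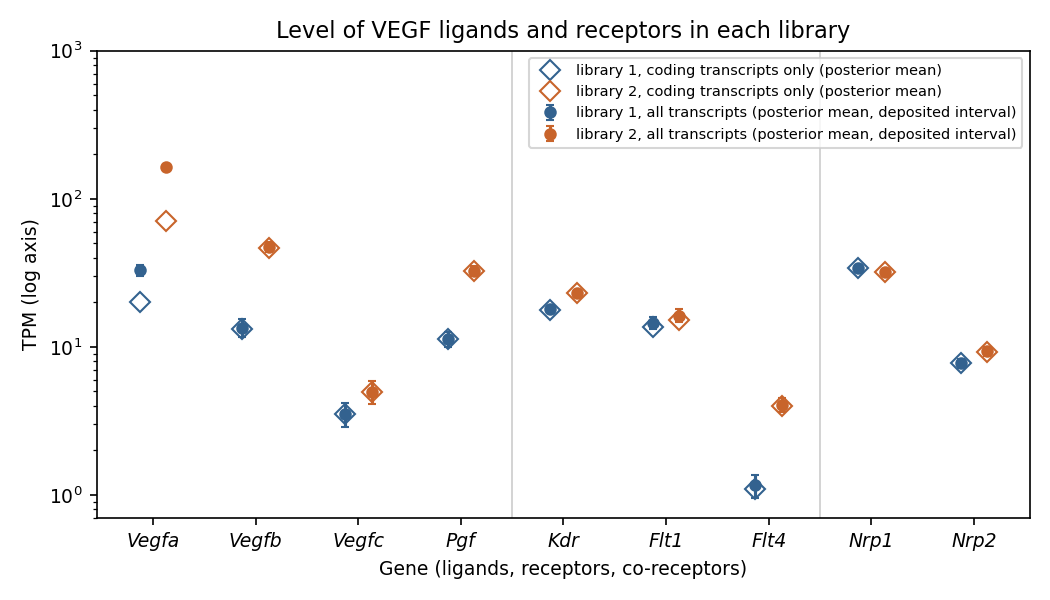
Posterior mean TPM (log axis) of each VEGF ligand, receptor and co-receptor in library 1 and library 2; filled points with bars are all transcripts with the deposited interval, open diamonds are coding transcripts only. Vegfa is the gene whose diamonds lie well below its points, and the levels are on the deposited scale, mitochondrial RNA included.

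Vegfa, the principal signal for blood vessel growth, lies on the minus strand at chr17:46016993-46032369 (mm10, as are all coordinates here). It had 1209 expected counts in library 1 and 3770 in library 2. Its level was 33.4 and 172 TPM (102.5 ± 97.7, SD, n = 2), higher than 89.1% of protein-coding genes in library 1 and 96.7% in library 2. Posterior means were 32.9 TPM (interval 30.02 to 35.90) and 163 TPM (interval 154 to 172). Library 2 was thus the high one, and the intervals were far apart.

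Coding Vegfa transcripts differ in whether they hold exon 6 and exon 7, which code for the basic stretches that tie the protein to heparan sulfate. The 2 segments are shown because they define the forms counted next; they were read from the GENCODE M21 transcripts on the coding (minus) strand, 5′ to 3′, and capitals mark the in-frame codons for lysine and arginine. The exon 6 segment covers chr17:46022277-46022348 and the exon 7 segment chr17:46020991-46021122.
Vegfa exon 6: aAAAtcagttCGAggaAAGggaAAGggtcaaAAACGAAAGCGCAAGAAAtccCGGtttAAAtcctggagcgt
Vegfa exon 7: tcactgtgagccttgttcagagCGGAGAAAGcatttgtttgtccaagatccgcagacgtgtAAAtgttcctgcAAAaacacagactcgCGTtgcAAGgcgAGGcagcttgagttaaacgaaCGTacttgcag
Of the 23 whole codons of the 72-base exon 6 segment 12 were basic, against 9 of the 43 whole codons of the 132-base exon 7 segment.

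The transcript with exon 7 only (Vegfa-202, 190 residues, the VEGF164 type) led in both libraries, with 792 and 2175 expected counts and 14.2 and 49.8 TPM. Transcripts with neither exon (Vegfa-201 and Vegfa-211, 146 residues, the diffusible VEGF120 type) had 288 and 873 counts and 5.36 and 22.3 TPM. All library 1 counts of this class were those of Vegfa-211, which is 3324 bases long in the deposited table and 975 in M21, so its class rests on the later model. The transcript with both exons (Vegfa-207, 214 residues, the matrix-bound VEGF188 type) had 8.18 and 54.3 counts and 0.27 and 2.27 TPM. These 3 classes kept the same order in both libraries. A shortened form of the last class (Vegfa-204, 208 residues, lacking 18 bases of exon 6) was listed at 0 counts in both libraries. The form with exon 6 only (Vegfa-203, 170 residues) had 5 counts in library 1 and 0 in library 2, and its annotated transcript is only 513 bases long.

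As a share of coding Vegfa counts, forms holding exon 7 made up 73.2% in library 1 (95% exact Clopper-Pearson interval 70.5 to 75.8, 800 of 1093 counts) and 71.9% in library 2 (70.3 to 73.5, 2230 of 3102 counts). Forms with neither exon made up 26.3% of coding counts in library 1 and 28.1% in library 2, and the intervals of 23.8 to 29.1 and 26.6 to 29.8 overlapped. Forms with both exons made up 0.73% (0.32 to 1.44) and 1.74% (1.31 to 2.27), again with overlap. All such intervals cover counting error only, and not the error of assigning reads to transcripts. The intervals of all 3 shares thus overlapped between libraries whose coding Vegfa TPM differed 3.59-fold. For forms with both exons the overlap was narrow, from 1.31% to 1.44%.

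The 5 remaining Vegfa entries code for no protein in the annotation and keep 151 to 361 bases of intron within lengths of 463 to 874 bases. They held 116 of 1209 counts in library 1 (9.59%, interval 7.99 to 11.4) and 668 of 3770 in library 2 (17.7%, interval 16.51 to 18.98). Because TPM divides by length and the entries are short, they made up 38.0% of Vegfa TPM in library 1 and 56.7% in library 2. In TPM the largest of them in library 2, Vegfa-209, had 1.30 and 115 counts, or 0.28 and 30.6 TPM. Vegfa-206 went the other way in counts, with 54.4 in library 1 and 43.4 in library 2. Summed over coding transcripts alone, Vegfa stood at 20.7 and 74.3 TPM, still the second and the first of the 9 genes. Over all entries, the deposited share of the exon 7 forms was 43.2% in library 1 and 30.3% in library 2. Over coding transcripts alone, the transcript with exon 7 only held 68.5% and 67.0% of TPM.

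Vegfb, a ligand of Flt1 and Nrp1 linked to fatty acid handling, lies on the minus strand at chr19:6982473-6987651. It had 231 and 686 counts, and its level was 14.0 and 50.3 TPM (32.1 ± 25.7, SD, n = 2). Library 2 was again the high one, with posterior intervals of 11.7 to 15.3 and 43.9 to 51.2 TPM. Vegfb has a heparin-binding shorter form of 188 residues (VEGF-B167) and a more diffusible longer form of 207 residues (VEGF-B186), which holds a segment of 101 bases at chr19:6985496-6985596 (minus strand). The segment is shown in capitals, with 12 flanking bases on each side in lower case, because the 2 libraries differed over it.
Vegfb inserted segment: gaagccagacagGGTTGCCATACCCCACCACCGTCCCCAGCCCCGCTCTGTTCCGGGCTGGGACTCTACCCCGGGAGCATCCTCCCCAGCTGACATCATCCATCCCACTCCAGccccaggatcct
Its GC content was 66.3%. The longer form (Vegfb-201) had 14 of 230 coding counts in library 1 (6.09%, interval 3.37 to 10.0) and 319 of 684 in library 2 (46.6%, interval 42.9 to 50.5). In TPM it was at 0.75 in library 1 and 21.8 in library 2, while the shorter form (Vegfb-202) was at 13.01 and 27.97. As an estimate the shorter form led in both libraries, but in library 2 the deposited TPM intervals of the 2 forms overlapped (16.95 to 24.39 for the longer, 21.74 to 30.31 for the shorter). The intervals of the longer form's share did not overlap between the libraries.

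Pgf, which codes for placental growth factor and binds Flt1, lies on the minus strand at chr12:85166635-85177790. It had 283 and 652 counts and 11.9 and 34.9 TPM (23.4 ± 16.3, SD, n = 2). Its single annotated transcript codes for 158 residues. The posterior intervals were 9.98 to 12.6 and 30.2 to 35.2 TPM, so library 2 was higher.

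Vegfc, the ligand of Flt4 that drives lymphatic growth, lies on the plus strand at chr8:54077606-54187096. It had 106 counts in library 1 and 119 in library 2, the fewest of the ligands, and 3.66 and 5.24 TPM (4.45 ± 1.12, SD, n = 2). Its posterior intervals, 2.86 to 4.17 and 4.09 to 5.85 TPM, overlapped. The fifth mammalian ligand gene, Vegfd, was in the list of ligands and partners and had 12.1 and 14.7 TPM, above Vegfc in each library.

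Kdr, the main signalling receptor for VEGF-A, lies on the minus strand at chr5:75932827-75978458. It had 1850 and 1903 counts and 18.9 and 24.8 TPM (21.8 ± 4.17, SD, n = 2). One coding transcript (Kdr-201, 1345 residues) held 99.8% of Kdr TPM in library 1 and all of it in library 2. Kdr was the highest of the 3 receptors in both libraries: its TPM was 1.32 times that of Flt1 in library 1 and 1.54 times in library 2.

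Flt1, which codes for VEGFR1, lies on the minus strand at chr5:147561604-147726011. It had 1574 and 1406 counts and 14.3 and 16.1 TPM (15.2 ± 1.32, SD, n = 2). Its RNA ends in alternative ways: the full-length form codes for a membrane receptor of 1333 residues, and the soluble form of 688 residues, a secreted decoy that binds ligand without signalling, reads on past a splice site into intron sequence. Both continuations are shown in capitals after the 12 shared bases in lower case; the soluble end (chr5:147639130-147639224, minus strand) closes with the stop codon, and the full-length continuation (chr5:147634429-147634523, minus strand) is cut to the same 95 bases.
Flt1 soluble end: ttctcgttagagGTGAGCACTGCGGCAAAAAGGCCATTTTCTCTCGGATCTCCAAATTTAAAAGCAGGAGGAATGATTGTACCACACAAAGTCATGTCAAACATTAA
Flt1 full-length continuation: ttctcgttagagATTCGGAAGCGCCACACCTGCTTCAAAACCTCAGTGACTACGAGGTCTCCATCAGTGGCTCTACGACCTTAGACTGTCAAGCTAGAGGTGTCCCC
The soluble stretch adds 30 whole codons before its stop codon. The codon split across the junction also codes for another residue than in the membrane form. Its GC content was 41.1%, against 53.7% for the full-length continuation.

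Full-length Flt1 (Flt1-202) had 937 and 981 counts, or 8.17 and 10.9 TPM. Soluble Flt1 (Flt1-203) had 637 and 425 counts, or 6.09 TPM (interval 5.30 to 6.26 around the posterior mean) and 5.20 TPM (4.37 to 5.40). The soluble form was therefore a large minority in both libraries. Its deposited share of Flt1 TPM was 42.7% in library 1 and 32.2% in library 2. By counts the share was 40.5% (interval 38.0 to 42.9) and 30.2% (27.8 to 32.7), so it was lower in library 2 beyond counting error. The 3 non-coding Flt1 entries were listed at 0 counts in both libraries.

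Flt4, the lymphatic receptor for VEGF-C, lies on the plus strand at chr11:49609263-49652739 and was the lowest member in both libraries. It had 122 and 346 counts and 1.20 and 4.28 TPM (2.74 ± 2.18, SD, n = 2), with posterior intervals of 0.96 to 1.37 and 3.63 to 4.48 TPM. Kdr TPM was 15.7 times Flt4 TPM in library 1 and 5.79 times in library 2. Its coding transcript (Flt4-201, 1363 residues) held 95.6% and 98.7% of Flt4 TPM. Among lymphatic markers, Lyve1 was at 20.1 and 21.6 TPM and Prox1, the transcription factor of lymphatic identity, at 0.92 and 0.51 TPM.

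Nrp1, a co-receptor that binds the VEGF164 type and class 3 semaphorins, lies on the plus strand at chr8:128358604-128503363. It had 3499 and 2635 counts, the most of the 9 genes in library 1. Its level was 35.8 and 34.4 TPM (35.1 ± 0.96, SD, n = 2), close together on the deposited scale but 74.0 and 40.9 without mitochondrial RNA, as given above. It has a single transcript in the deposited tables, of 923 residues and 5907 bases. A microRNA gene, Mir1903, is annotated within Nrp1 on the same strand.

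Nrp2, the co-receptor for VEGF-C and for other semaphorins, lies on the plus strand at chr1:62703285-62818695. It had 867 and 822 counts and 8.11 and 9.80 TPM (8.96 ± 1.20, SD, n = 2). Nrp1 TPM was 4.41 times Nrp2 TPM in library 1 and 3.51 times in library 2. A gene annotated on the opposite strand (Gm29083) and one on the same strand (Gm37121) overlap Nrp2; whether the counting used strand is not given in the sources used here.

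Nrp2 transcripts end in either of 2 last exons, which gives the a and b forms with different membrane anchors and tails. The a forms had 540 counts in library 1 and 592 in library 2, and the b forms 327 and 228. The b share of coding counts was 37.7% (interval 34.5 to 41.0) in library 1 and 27.8% (24.76 to 31.01) in library 2, lower in library 2 beyond counting error. The leading a transcript (Nrp2-202, 926 residues) held 55.1% and 48.6% of Nrp2 TPM, and the leading b transcript (Nrp2-205, 901 residues) 36.9% and 27.0%. Another a transcript, Nrp2-203 (914 residues), was listed at 0 counts in library 1 and had 122 in library 2. An optional exon of 51 bases in the a forms (chr1:62812534-62812584, plus strand, capitals between 12 flanking bases) is shown because Nrp2-202 holds it and Nrp2-203 does not.
Nrp2 optional exon: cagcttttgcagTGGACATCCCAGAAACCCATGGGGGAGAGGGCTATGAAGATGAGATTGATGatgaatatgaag

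**Figure D2:**
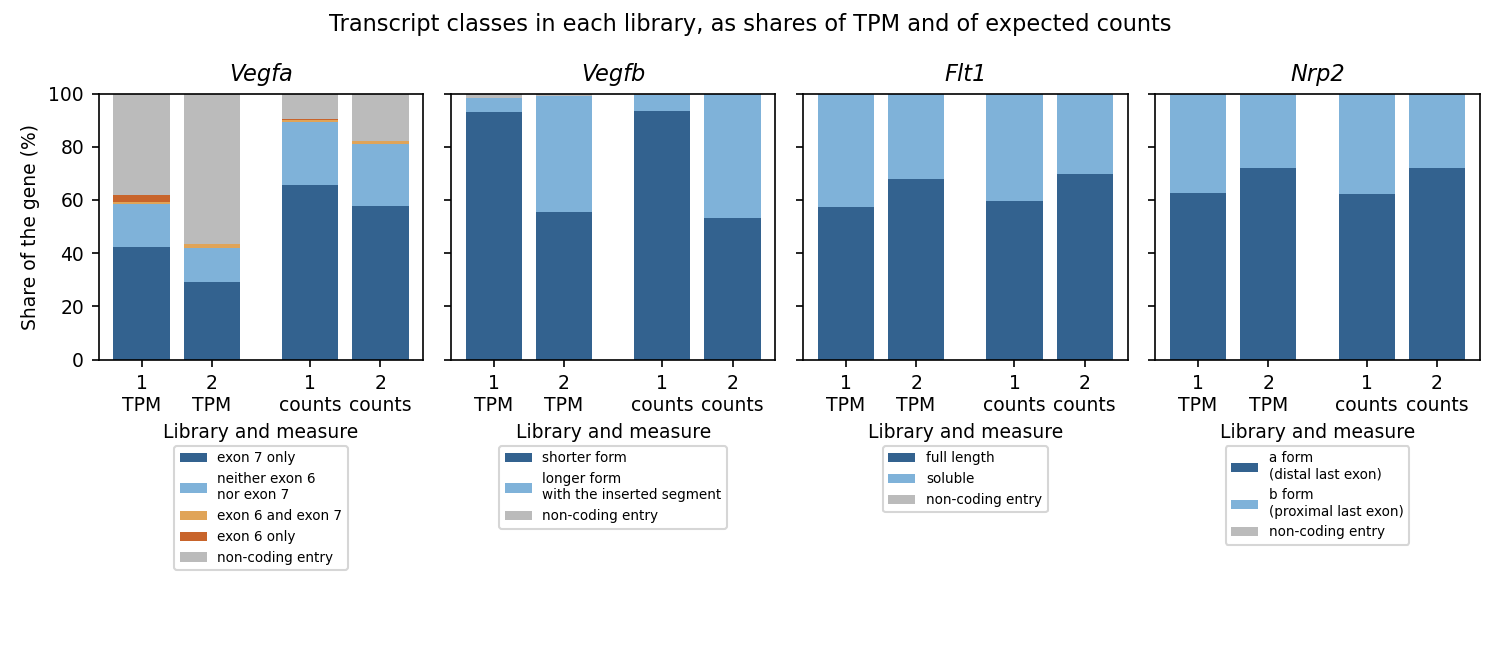
Share of each transcript class (percent of the gene) of Vegfa, Vegfb, Flt1 and Nrp2 in library 1 and library 2, by TPM and by expected counts. The grey non-coding entries of Vegfa reach 56.7% of TPM but 17.7% of counts in library 2, and the longer Vegfb form goes from 6.06% to 46.6% of counts.

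The 2 libraries were then compared by scaled counts, as a technical comparison of library 2 with library 1 and not of conditions. With 1 library on each side there is no test; a gene was called at a 2-fold difference, and intervals of the log2 ratio are 95% exact and cover counting error only. Vegfa had a log2 ratio of 1.25 (1.16 to 1.35), Vegfb 1.18 (0.97 to 1.40) and Flt4 1.11 (0.81 to 1.43). These 3 of 9 members passed 2-fold on the higher side, as did 31.3% of the 18275 genes with at least 10 counts. On the lower side 0 of 9 passed it, against 19.9% of genes. The share of members higher is near its background, and nothing particular to the 9 genes is read from it.

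Pgf was higher in library 2 at a log2 ratio of 0.82 (0.61 to 1.02), under 2-fold. Nrp1 was lower at -0.80 (-0.87 to -0.72), Flt1 at -0.55 (-0.65 to -0.45), Nrp2 at -0.46 (-0.60 to -0.32) and Kdr at -0.35 (-0.44 to -0.25). For Vegfc the ratio was -0.22 and its interval, -0.61 to 0.17, held 0, so a difference was not detectable at this depth. So the members with a positive ratio were 3 ligands and Flt4, and those with a negative ratio were Vegfc, both co-receptors, Kdr and Flt1. The median over the 9 members was -0.22, against 0.02 over all tested genes. With total counts as the scale every ratio moved up by the same 0.44, and Kdr (0.09) and Vegfc (0.22) then lay above 0.

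The ratio went with the GC content of a gene's transcripts, and this applied across the whole tables: Spearman's rho was 0.86 over 18147 genes and 0.77 over the 9 members, all from the same pair of libraries. The 4 members with positive ratios were the 4 richest in GC, Vegfb at 61.1%, Flt4 at 56.2%, Pgf at 56.0% and Vegfa at 54.7%. The other 5 ranged from 45.7% in Nrp1 to 50.5% in Nrp2. Genes as rich in GC as Vegfb had a median log2 ratio of 4.21, those like Flt4 and Pgf 2.20, and those like Vegfa 1.51. By this gene value, each of these 4 members was therefore below the median of its own GC bin. The gene value is taken over all M21 transcripts of a gene, short non-coding entries included. The leading Vegfa transcript, Vegfa-202, had 50.85% GC. The bin of Map2k1, at 50.9%, had a median of 0.33, under the Vegfa ratio of 1.25. The only Pgf transcript in the deposited tables had 54.99% GC, and the bin of Pdgfrb, at 55.0%, had a median of 1.66.

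With the median of the GC bin subtracted, the log2 ratio was -0.26 for Vegfa, -3.03 for Vegfb, -1.38 for Pgf and -1.08 for Flt4. The same value was -0.01 for Nrp1, 0.02 for Vegfc, -0.11 for Kdr, -0.41 for Flt1 and -0.64 for Nrp2. After this step 0 of 9 members were at least 2-fold higher, where 12.0% of genes were, and 3 of 9 (Vegfb, Pgf and Flt4) at least 2-fold lower, where 9.96% were. Pgf passed this limit by its gene value of GC only. At the 54.99% of its deposited transcript, its ratio of 0.82 lies less than 1 log2 unit under the bin median of 1.66. The higher calls for Vegfa, Vegfb and Flt4 thus depended on leaving the GC trend in. Of the 9 members, 4 lay between the quartiles of their GC bin (Vegfa, Vegfc, Kdr and Nrp1) and 5 outside.

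**Figure D3:**
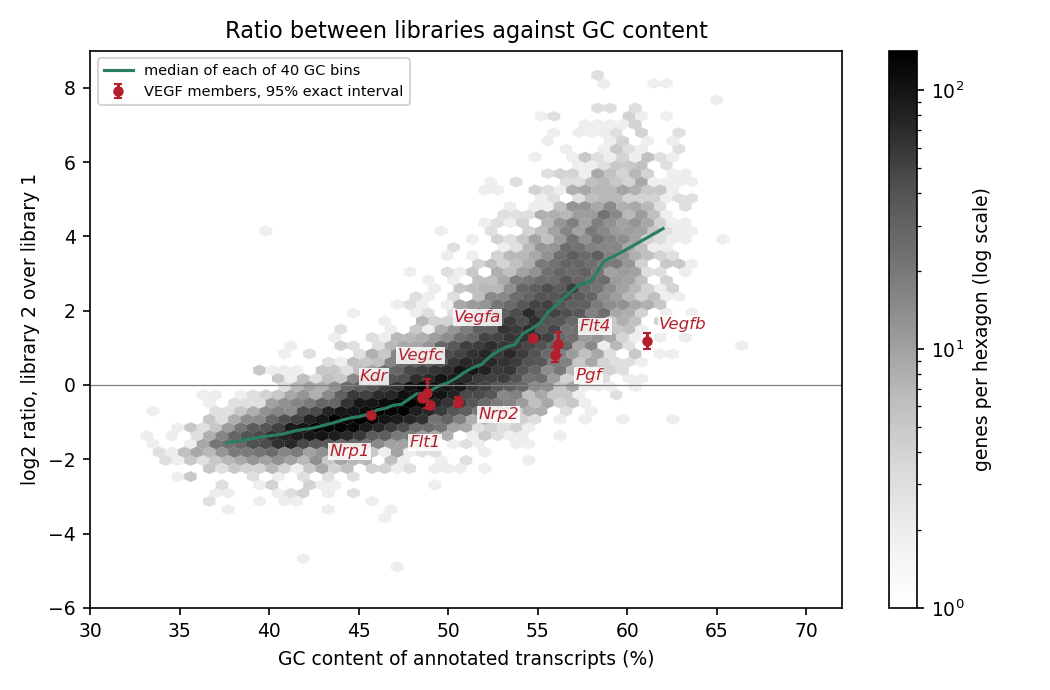
Log2 ratio of library 2 over library 1 (scaled counts) against GC content of the annotated transcripts (percent); grey hexagons are all tested genes, the green line is the median of each of 40 GC bins, and red points with 95% exact intervals are the VEGF genes. Vegfb, Pgf and Flt4 lie more than 1 log2 unit under the line, and Nrp1 and Vegfc lie on it at their GC content in M21.

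The GC content of transcript forms was set beside their shares in 4 genes. The longer Vegfb form, with a larger share in library 2 than in library 1, had 62.6% GC against 61.9% for the other, and full-length Flt1 had 50.5% against 45.7% for the soluble form. The Nrp2 transcript with 0 counts in library 1, Nrp2-203, had 51.1%, against 49.1% for the leading b transcript. In these 3 genes the form whose share was larger in library 2 than in library 1 was the richer in GC. In Vegfa the forms were mixed. Within the class with neither exon, Vegfa-211, at 63.7% GC by its 975-base M21 model, held 23.8% of Vegfa counts in library 1 and 15.5% in library 2. In the same class Vegfa-201, at 49.6%, held 0 and 7.66%. The GC content of Vegfa-211 at its deposited 3324 bases is not known, so which of these forms is poorer in GC is open. Elsewhere Vegfa-202, at 50.85%, held 65.5% and 57.7%, and Vegfa-207, at 58.6%, held 0.68% and 1.44%. Vegfa-201 thus had a larger share in library 2 than in library 1 and Vegfa-202 a smaller one, although Vegfa-201 was the poorer in GC. The part of GC content in these shares was not tested.

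Other genes of the pathway were read from 5 fixed lists, whose counts stand against the same 31.3% of all genes higher and 19.9% lower. Their counts after the GC step stand against 12.0% of genes higher and 9.96% lower. Of 11 further ligands and partners, 4 were 2-fold or more higher in the later library and 3 lower, with a median log2 ratio of -0.56 (median -0.10 after the GC step). The highest were Sema3c, a semaphorin that binds neuropilins, at 70.0 and 47.7 TPM, Hspg2, which codes for the heparan sulfate carrier perlecan, at 0.50 and 104 TPM, and Vegfd. Of 12 hypoxia and metabolic regulators of Vegfa, 2 were higher and 2 lower, and after the GC step 1 was higher and 4 lower, with a median of -0.64. They were led by Zfp36l1 at 88.5 and 74.7 TPM and Zfp36 at 36.4 and 77.3 TPM, both of which code for proteins that promote mRNA decay, and by Epas1, a hypoxia-inducible factor, at 35.9 and 76.1 TPM.

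Of 15 genes of the signal relay below the receptors, 7 were higher and 2 lower. Plcg1, the phospholipase that binds activated Kdr, was at 24.6 and 87.5 TPM, and Mapk3, a kinase of the relay, at 18.5 and 76.8 TPM. Of 14 angiopoietin, Notch and related genes, 6 were higher and 1 lower, led by Eng at 5.36 and 41.7 TPM, Notch1 at 2.77 and 29.9 TPM and Ptprb at 13.1 and 15.6 TPM. Of 11 other growth and antiangiogenic factors, 5 were higher and 1 lower, led by Sparc at 553 and 1226 TPM, Angptl4 at 26.8 and 205 TPM and Serpinf1 at 43.1 and 143 TPM. After the GC step at most 1 gene of each of these 3 lists was called in either direction, where 12.0% of all genes were higher and 9.96% lower.

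Markers of the cells that carry the receptors moved between the libraries as well. All 12 blood endothelial markers were at 1 TPM or above in each library. Of these, 7 were higher by 2-fold or more in library 2 and 1 was lower, where 31.3% and 19.9% of all genes were. Their median log2 ratio was 1.73. After the GC step 3 were higher and 1 lower, where 12.0% and 9.96% of genes were, and the median was 0.34. The 12 markers summed to 132 and 490 TPM. On the scaled-count ratio used for that median, Kdr was at -0.35 and Flt1 at -0.55, and after the GC step at -0.11 and -0.41. The GC content of Kdr and Flt1 was 48.6% and 49.0%, against a median of 54.3% for the 12 markers. Pecam1, the pan-endothelial adhesion gene, was at 23.7 and 54.2 TPM, Egfl7 at 13.4 and 95.7 TPM, and Gpihbp1, the capillary anchor of lipoprotein lipase, at 5.27 and 96.0 TPM. The 6 lymphatic markers summed to 74.1 and 180 TPM, but 96.1 TPM of the second value was Ccl21a, whose reads are shared with near-identical copies. Their part in the receptor levels was not tested.

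**Figure D4:**
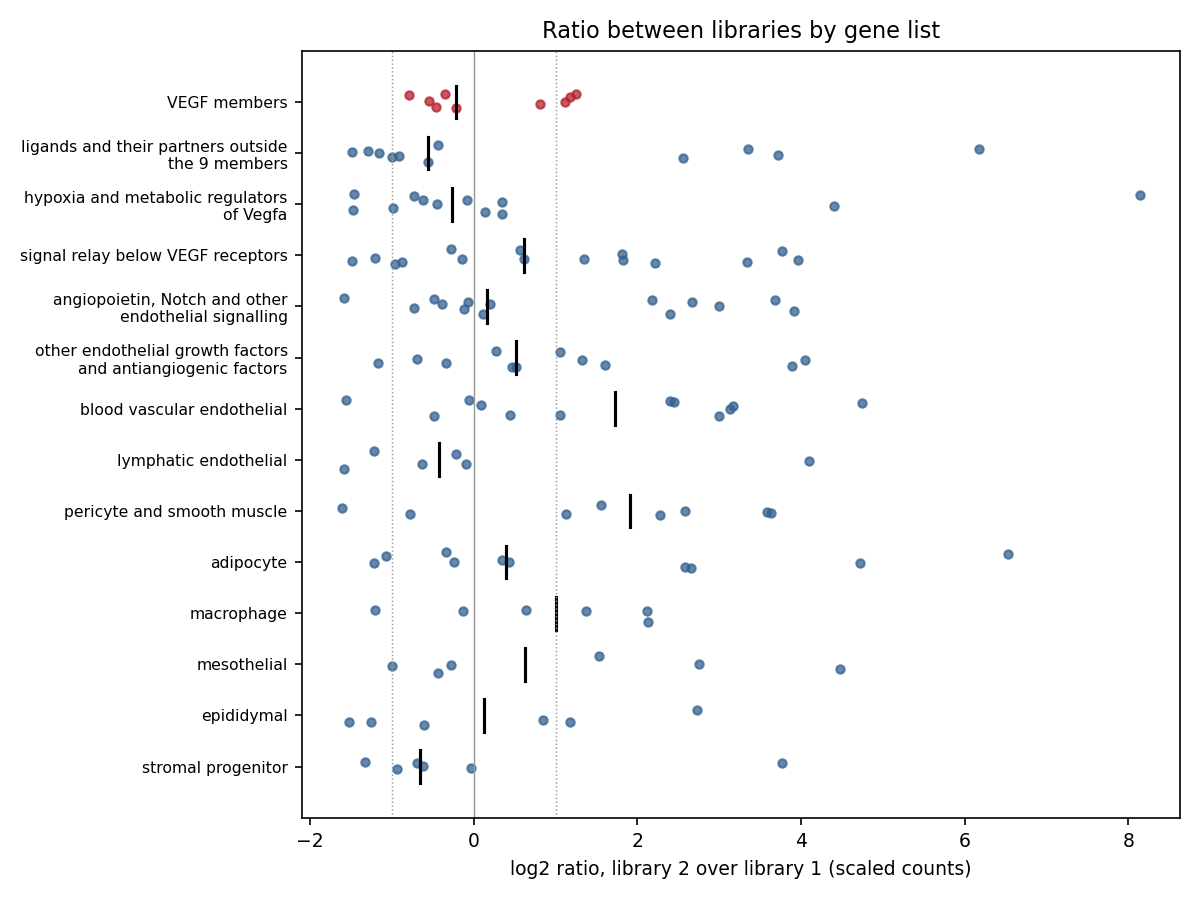
Log2 ratio of library 2 over library 1 (scaled counts) for each gene of the VEGF system and of 13 pathway and marker lists; each point is a gene, the black bar is the list median and dotted lines mark a 2-fold difference. The VEGF genes lie between -0.80 and 1.25, a narrower range than that of the blood endothelial markers.

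By distance in log2(TPM + 1) over the 2 libraries, the genes of these lists most like the receptors were Lyve1 for Kdr (0.21), Ptprb for Flt1 (0.12) and Angpt2 for Flt4 (0.52). Jag1 was nearest to Nrp2 (0.12) and Fgf1 to Nrp1 (0.16). Among ligands, Angptl4 was nearest to Vegfa (0.40), Cdh5 to Vegfb (0.24), Prkcb to Vegfc (0.34) and Cd68 to Pgf (0.36). With 2 libraries and 122 candidate genes, such closeness describes level and library ratio alone.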

How the data were processed

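The 2 libraries are technical replicates from 1 adipose biosample, with RNA from a kit for lipid-rich tissue, per the labels. Per the file headers, the deposited tables hold expected counts of genes and transcripts, which may be fractional, beside TPM and FPKM. Isoform shares are deposited as a percent of the gene's TPM, and bounds of an interval accompany the posterior mean TPM. Assembly mm10 and annotation M4 are named in text deposited beside the files; the names of aligner and quantifier were not given in these sources, and the column names are those RSEM writes.

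Members were matched by gene identifier. Symbols, coordinates, coding exons, GC content and sequences came from GENCODE M21, a later annotation of the same assembly, in which 42462 of 43346 identifiers and all 33 member transcripts matched. For 3 transcripts (Nrp1-201, Vegfa-211 and Vegfc-201) M21 gives another length than the deposited tables. Entries of bare numbers and spike-in names (26345) held 0 and 2 counts and were left out.

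Depth was 19954869 and 19256807 expected counts. Rounded counts of genes with at least 10 counts summed (18275) were scaled by TMM (edgeR 4.0.16, R 4.3.3; effective sizes 17133731 and 22407953), with 0.5 added; intervals are exact Clopper-Pearson (scipy 1.17.1). The ratios and their GC step (40 bins) were tested on simulated counts with known ratios, counting error and at most a linear GC trend. In the real pair 12.0% of genes stayed higher and 9.96% lower after the step. The simulation lacks such spread, so it does not show how well the step works here. Members, gene lists and alternatives were chosen with earlier results of these data known. Text names all members, all coding transcripts of Vegfa and Flt1, other transcripts at 10% or more of their gene, the 3 genes of highest mean TPM per list and the 2 genes most like each member; further names (Prox1 and the Vegfa non-coding entries) were chosen after their values were seen. An item that this rule names is not reported here. Alternatives covered the scaling, pseudocount, filters, GC step, fold, level unit, TPM without mitochondrial genes, coding transcripts alone and each library alone.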

Additional observations from a re-analysis of the deposited data

How the results depend on the processing

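Subtracting the median of the GC bin changed the calls: 0 members were then at least 2-fold higher in library 2 and 3 lower, and the log2 ratio reversed to -0.26 for Vegfa, -3.03 for Vegfb and -1.08 for Flt4. The values of GC content are given with the ratios; the cause was not tested. A fold of 1.5 gave 1 member lower (Nrp1) and 4 higher. Total counts in place of TMM also gave 4 higher and 0 lower, and changed the sign of 2 members. DESeq2 size factors, posterior mean counts, a pseudocount of 5 and coding transcripts only (chosen after seeing the data) changed no sign. The mean Vegfa share of exon 7 forms was 36.8% by deposited TPM, 62.6% by expected counts and 69.9% over coding transcripts, since the short non-coding entries weigh more in TPM. It was 43.2% in library 1 alone and 30.3% in library 2 alone, and the soluble Flt1 share was 42.7% and 32.2% in the same order. The mean Kdr to Flt1 ratio of 1.43 was 1.26 by expected counts, which are not divided by length. Rescaling TPM without mitochondrial genes and copies raised the mean by over 1.5 times in 5 members: Kdr to 34.3 from 21.8, Nrp1 to 57.5 from 35.1, Flt1 to 24.3 from 15.2, Nrp2 to 14.2 from 8.96 and Vegfc to 6.90 from 4.45. At a limit of 5 TPM 7 members were detected in both libraries, all but Vegfc and Flt4. No paired analysis was possible because the labels give a single group. Depth limits Vegfc and Flt4 the most, with 106 and 122 counts in library 1, and 1 biosample gives no biological spread.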

Other observations

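Marker lists of further cell types held genes that differed between the libraries in either direction, against 31.3% of all genes higher and 19.9% lower. After the GC step, with 12.0% of genes higher and 9.96% lower, fewer were called: 2 higher and 1 lower for pericyte and smooth muscle, 0 and 1 for macrophage, 1 and 1 for mesothelial, 2 and 0 for adipocyte, 1 and 0 for stromal, 1 and 0 for epididymal and 1 and 1 for lymphatic markers. Before that step, of 8 pericyte and smooth muscle markers 6 were higher by 2-fold or more in library 2 and 1 was lower: Acta2, smooth muscle actin, was at 79.6 and 391 TPM and Des, desmin, at 2.97 and 33.5 TPM, whereas Rgs5, a pericyte gene, was at 123 and 67.3 TPM. Of 6 macrophage markers 3 were higher and 1 lower, with C1qa, a complement gene, at 17.1 and 123 TPM and Mrc1, the mannose receptor gene, at 42.1 and 25.8 TPM; Lyz2 was at 173 and 448 TPM but shares reads with another gene. Of 6 mesothelial markers 3 were higher and 1 lower, with Krt19 at 5.58 and 128 TPM, Upk1b at 32.8 and 40.6 TPM and Upk3b at 9.26 and 44.9 TPM. Of 10 adipocyte markers 4 were higher and 2 lower: Adipoq, which codes for adiponectin, was at 656 and 1486 TPM and Lpl, lipoprotein lipase, at 1690 and 1422 TPM.

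Of 6 stromal progenitor markers 1 was higher and 1 lower, with Dcn at 982 and 852 TPM, Ly6a at 114 and 186 TPM and Cd34 at 121 and 93.96 TPM. Of 6 epididymal markers 2 were higher and 2 lower, with Crisp1 at 6982 and 4053 TPM and Lcn5 at 2402 and 7167 TPM. Of 6 lymphatic markers 1 was higher and 2 lower, and Pdpn was at 30.2 and 44.0 TPM. The genes next nearest by level were Serpinf1 for Vegfa (distance 0.44), Map2k1 for Vegfb (0.38), Plxna2 for Vegfc (0.35), Egln1 for Pgf (0.48) and Kdr (0.40), Vegfd for Flt1 (0.25), Apln for Flt4 (0.64), Upk1b for Nrp1 (0.26) and Lrrn4 for Nrp2 (0.16).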
